A study of Arabidopsis thaliana with 3 samples.

Results

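The genes described here had a signal at least 2-fold lower than on the cold-acclimated array after 3 h of recovery from freezing, and at least 2-fold higher than on that array after 24 h. They were chosen from the values themselves. Deposited signals under a floor of about 16, where signals were not told apart, were set to it, and log2 ratios to the cold-acclimated array were taken. Of 13513 probe sets that name 1 gene, 31 passed both folds, each for a different gene. The array holds 22810 probe sets. The gene AT5G61590, which also passed, and any glycosyltransferase gene with a UGT symbol were left out by the rule (no UGT gene passed). Because these ratios chose the members, their size is a description, and no test was run on them.

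The samples were all above-ground parts of Arabidopsis thaliana plants of accession Col-0 (stock N1092) at growth stage 1.14, on Affymetrix ATH1 arrays, whose short probes form a set for each gene. There was 1 array in each of 3 groups, so the spread between plants is unknown. All plants were grown at 20 °C with 9 h of light and 15 h of darkness a day and then kept at 4 °C for 11 days, which raises freezing tolerance. The control array came from cold-acclimated plants collected 5 h into the light. For the other arrays, freezing for 20 h began when the light went off, at a temperature that is printed as 6.0 °C with no sign, and recovery at 20 °C followed in darkness for 3 h or for 24 h. By this schedule the 3 h array was taken at hour 8 of the daily cycle, 23 h after the last light ended, and the 24 h array at hour 5, 44 h after it. Freezing, warmth, darkness and, for the 3 h array, the hour of the day therefore cannot be told apart in a ratio to the control. Nor is it known whether the plants' own clock stood at the same phase on the control and 24 h arrays. In whole aerial parts, fewer cells of a type and less RNA per cell also cannot be told apart.

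Several members belong to known systems. Expansins loosen the cell wall so that cells can expand, and response regulators of the type-A class are switched on by the hormone cytokinin and damp its signal. Ubiquitin ligases with a RING domain tag proteins for breakdown, and the transcripts of plants kept in darkness shift towards the use of proteins and lipids as sugars run out. The reference names 7 of the 31 genes by more than a locus code. The other 24 are known here by locus code only, so no role is given for them.

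As deposited, the 2% trimmed mean of each array was near 100, so a like overall brightness was largely set beforehand and nothing is read from it. On this scale, 69.6 to 70.5% of the Arabidopsis probe sets were at or above the floor on each array. The median signal was between 39.5 and 42.8. The bacterial spike-in probe sets, which read transcripts added in fixed amounts before hybridization, exceeded the control array 1.70-fold at 3 h and 1.43-fold at 24 h. Scaling to these spike-ins shifts the log2 ratios by -0.76 at 3 h and by -0.52 at 24 h, apart from the effect of the floor. Below, 3 signals given in a row stand for the control, the 3 h and the 24 h array, in that order. Of 9 green tissue genes listed, 3 were matched to the annotation. LHCB4.2 and PORB were bright on all 3 arrays, between 1330 and 4153 and between 1593 and 2457, while LHCB4.3 was at 500.7, 358.8 and 73.9. Of 5 root markers listed, 2 were matched. EXPA7 lay between 8.38 and 22.5, whereas PYK10 was at 15.8, 18.6 and 106.0. The part of PYK10-expressing cells in the 24 h values was not tested. Of 5 flower markers listed, 0 were matched.

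Among the genes with a role, EXPA8, an alpha-expansin, had the highest 24 h ratio to the control. Its signal was 36.1 on the control array, 2.45 at 3 h and 280.4 at 24 h. The 3 h value lay below the floor, so the signal was at least 2.24-fold lower than on the control, and the 24 h array was at least 17.4-fold above the 3 h array. Its log2 ratio at 24 h against the control was 2.96.

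A hormone response gene and a transcription factor gene were also members. RR16, a type-A response regulator of cytokinin signalling, was at 91.1 on the control, 27.97 at 3 h and 208.2 at 24 h. Its log2 ratios to the control were -1.70 and 1.19, so the difference at 3 h was the larger. GT2, a DNA-binding factor of the trihelix family, was at 35.6 on the control, 9.35 at 3 h, below the floor, and 135.7 at 24 h. The control signal of GT2 was close to the lowest that can pass, 32.2, which is 2-fold above the floor. The same holds for EXPA8, TSC10B, AT2G20670 and AT2G03310, with control signals from 36.1 to 39.6. With a floor of 33.3 the 3 h log2 ratio of GT2 was -0.10.

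ATL8, a RING-type ubiquitin ligase, was at 67.0, 20.2 and 158.7. At 3 h it was 3.32-fold lower than on the control and stood just above the floor. Both folds together put its 24 h signal 7.86-fold above that at 3 h.

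CCL, a gene named for its likeness to the clock-regulated gene CCR, has a short-lived transcript under circadian control. Its signal was 849.6 on the control, 395.8 at 3 h and 3157 at 24 h. The control and 24 h arrays share the hour of the day, and CCL differed between them by a log2 ratio of 1.89. Its log2 ratio of -1.10 at 3 h was against an array from another hour. The 24 h array was taken 44 h after the last light, and whether the clock phase was the same as on the control was not tested.

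TSC10B encodes a 3-ketodihydrosphinganine reductase, an enzyme of an early step of sphingolipid synthesis. It was at 36.2 on the control, 4.28 at 3 h, below the floor, and 89.6 at 24 h. DRT100, a leucine-rich repeat protein named for DNA-damage repair and toleration, was at 211.9, 99.5 and 434.1. Both DRT100 ratios, -1.09 and 1.03, lay close to the fold thresholds.

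**Figure D1:**
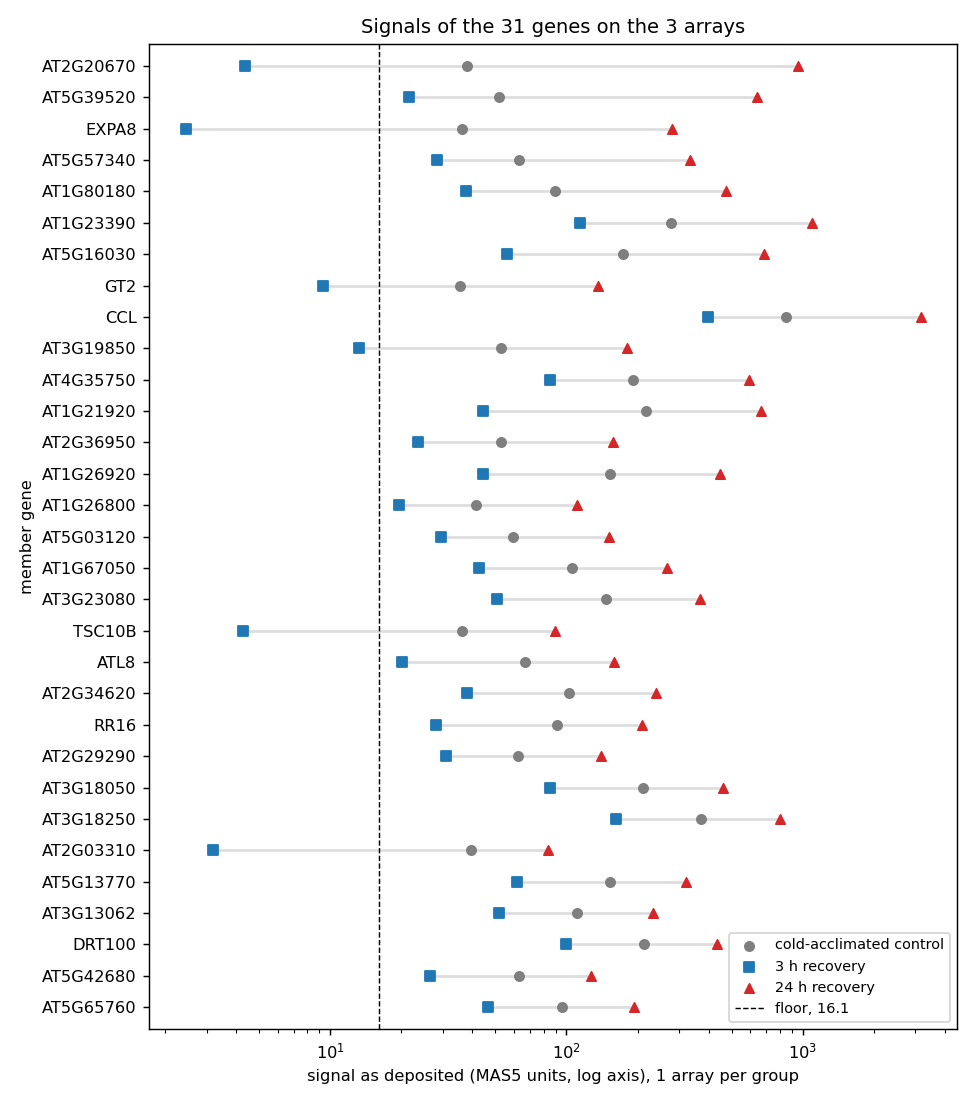
Signals as deposited (log axis, MAS5 units) of the 31 genes, ordered by their 24 h ratio from the top, with 1 point for each array and the floor as a dashed line. By the rule every gene has its 3 h point (square) to the left of the control (circle) and its 24 h point (triangle) to the right. In 6 genes the 3 h point lies below the floor.

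Among the genes known by locus code, AT2G20670 had the highest 24 h ratio. It was at 38.0 on the control, 4.38 at 3 h, below the floor, and 956 at 24 h, a log2 ratio of 4.65. The 24 h signal was at least 59.4-fold above that at 3 h. AT5G39520 followed, at 51.8, 21.5 and 639 (3.62 at 24 h). These were the only members at least 8-fold above the control at 24 h.

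AT5G57340 was at 62.7 on the control, 28.4 at 3 h and 334.3 at 24 h. AT1G80180 was at 89.1, 37.4 and 472.0. With log2 ratios of 2.41 each at 24 h, these complete the 5 members that were at least 4-fold higher. AT1G23390 came close to that mark, at 276.4, 113.9 and 1098, with a log2 ratio of 1.99.

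Among the 25 members above the floor on all 3 arrays, the difference at 3 h was largest in AT1G21920. It was at 216.3 on the control, 44.5 at 3 h and 664.4 at 24 h, and at 4.86-fold it was the only one of these 25 at least 4-fold lower at 3 h. Members below the floor at 3 h have only a bound there and may differ by more. With a floor of 4.26, EXPA8, TSC10B, AT2G20670 and AT2G03310 had 3 h log2 ratios between -3.22 and -3.08. With a floor of 33.3 the same genes had 3 h log2 ratios between -0.25 and -0.12, so these ratios depend on the floor. AT1G26920 was at 153.2, 44.2 and 444.9, and AT5G16030 at 173.2, 55.9 and 682.4. AT3G19850 was at 53.0 on the control, 13.2 at 3 h, below the floor, and 180.7 at 24 h. AT1G21920, AT5G16030 and AT3G19850 were at least 3-fold away from the control in both directions. With the floor at 4.26 EXPA8, AT2G20670 and GT2 were as well.

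AT4G35750 was at 190.8 on the control, 85.5 at 3 h and 593.5 at 24 h. AT2G36950 was at 52.6, 23.6 and 158.0. In both, as in 12 of the 25 members above the floor on all arrays, the log2 difference at 24 h was larger than that at 3 h. AT3G23080, at 146.6, 50.6 and 366.1, and AT2G34620, at 103.0, 38.1 and 239.9, were among the 13 with the larger difference at 3 h. AT1G67050 was at 105.9, 42.6 and 265.8, with ratios of nearly equal size, -1.31 and 1.33.

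A group of members stood closer to the thresholds. AT1G26800 was at 41.5 on the control, 19.6 at 3 h and 110.5 at 24 h. AT5G03120 was at 59.6, 29.4 and 151.8. AT2G29290, at 62.3, 30.9 and 140.5, had the smallest difference at 3 h, a log2 ratio of -1.01. These 3 had log2 ratios between -1.08 and -1.01 at 3 h.

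AT3G18050 was at 211.1, 85.1 and 458.2, and AT3G18250 at 371.5, 162.8 and 798.3. AT5G13770 was at 152.8, 61.5 and 320.5. AT3G13062 was at 110.9, 51.8 and 232.3. In these 4 genes the log2 ratio at 24 h lay between 1.07 and 1.12. AT2G03310 was at 39.6 on the control, 3.18 at 3 h, below the floor, and 83.5 at 24 h. AT5G42680 was at 62.7, 26.5 and 127.3, and AT5G65760 at 95.6, 46.7 and 192.9. AT5G65760 had the smallest log2 ratio at 24 h, 1.01, and a 3 h ratio of -1.03.

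Over the 31 members, the log2 ratio to the control ran from -2.28 to -1.01 at 3 h, with a median of -1.24. At 24 h it ran from 1.01 to 4.65, with a median of 1.35. The floor limits how low a 3 h ratio can be, most of all for members with a dim control signal, and with a floor of 4.26 the 3 h ratios reached -3.22. The 6 members below the floor at 3 h (EXPA8, GT2, TSC10B, AT2G20670, AT3G19850 and AT2G03310) have only a bound there. Over the 25 members above the floor on all 3 arrays, the 3 h ratios ran from -2.28 to -1.01 and the 24 h ratios from 1.01 to 3.62, with medians of -1.25 and 1.33. The floored signals of the 24 h array were 4.13-fold to 59.4-fold above those of the 3 h array, where the rule asks for at least 4-fold.

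An error can be had from genes read by 2 probe sets, as the difference of their ratios. The SD of 1 probe set was 0.33 log2 units at 3 h and 0.40 at 24 h, each over 76 genes, and it leaves out the spread between plants. None of the 31 genes had a second probe set naming it alone. At 3 h, 18 of the 25 members above the floor lay within 1 such SD of the 2-fold threshold, and at 24 h 16 of all 31 did. Of those 25, AT5G16030, AT1G21920 and AT1G26920 were beyond both thresholds by more than this SD. The members below the floor at 3 h cannot be placed against it at that time, except AT3G19850, whose bound of -1.72 was already beyond it.

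Just outside the 3 h threshold, among genes at least 2-fold higher at 24 h, were AT4G33666 (60.4, 30.6 and 462.9), the calmodulin-like gene CML41 (65.0, 33.1 and 145.5) and MGL (45.9, 23.7 and 102.4). Their log2 ratios at 3 h were -0.98, -0.97 and -0.95. Just outside the 24 h threshold were AT3G01690, AT1G29660 and PGRL1B, with log2 ratios of 0.97, 0.95 and 0.94. AT3G01690 was at 180.4, 76.7 and 353.0, and AT1G29660 at 367.5, 151.4 and 710.7. All 6 lay within the probe set SD of the threshold they missed.

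**Figure D2:**
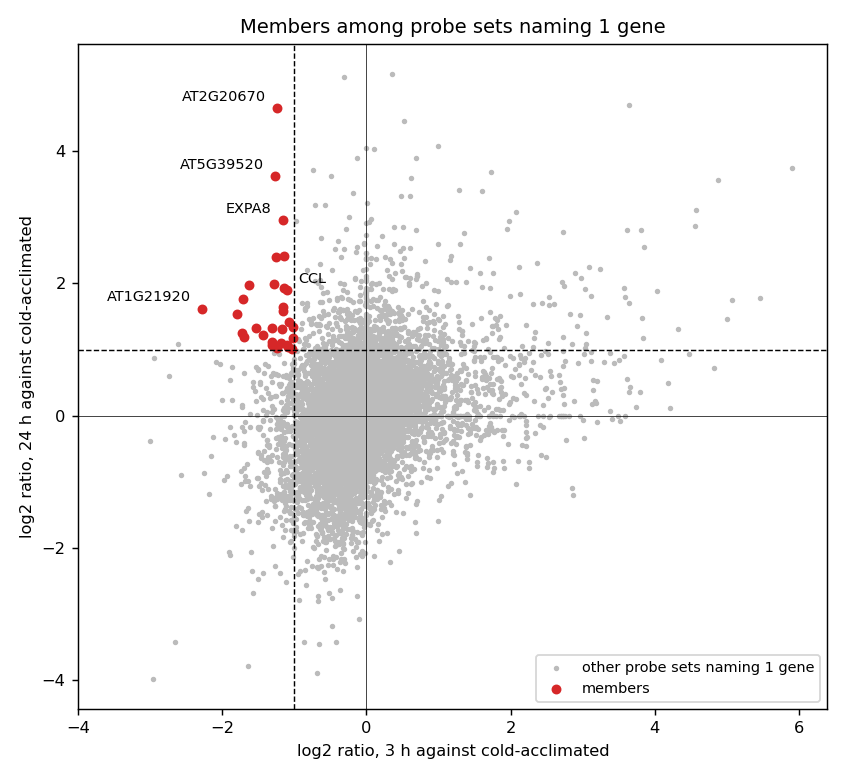
Log2 ratios to the cold-acclimated array at 3 h (horizontal) and 24 h (vertical) for probe sets naming 1 gene that reached the floor on at least 1 array. The 31 members (red) fill the field beyond both dashed 2-fold lines, with AT2G20670, AT5G39520 and EXPA8 at the top; the grey point in that field is AT5G61590, left out by the rule.

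Of the 9363 probe sets naming 1 gene that reached the floor on the control or the 3 h array, 363 (3.88%) were at least 2-fold lower at 3 h. Of 9481 for the 24 h comparison, 713 (7.52%) were at least 2-fold higher. The members are 8.54% of the first set and 4.35% of the second, and 0.318% of the 9754 probe sets that reached the floor on any array. Both comparisons share the control array and the rule fixes these counts, so nothing is read from them. The opposite pattern, higher at 3 h and lower at 24 h, was held by 8 probe sets (0.082%). Among probe sets without a gene name, 0.48% passed both folds in the members' direction.

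The nearest other patterns were 234 probe sets lower at 3 h and within 2-fold of the control at 24 h, and 562 higher at 24 h and within 2-fold at 3 h. The first had a median log2 ratio of -1.21 at 3 h, beside -1.24 for the members, and its 24 h ratios had quartiles of -0.55 and 0.36. The second had a median of 1.35 at 24 h, as the members did, and its 3 h ratios had quartiles of -0.24 and 0.35. These differences follow from how the sets were cut, and no test was made of them.

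The members were then set beside gene lists of known systems. These lists were chosen with earlier results of these data known, so their counts are a description and not independent of the data. Only 57 of the 269 listed places could be matched to the annotation. Of 38 dark-induced and sugar starvation genes listed, 13 were measured, ATL8 among them. Of these, 10 were at least 2-fold higher at 24 h, where 7.34% of all genes were, and 1 was at least 2-fold lower at 3 h, where 3.74% of all genes were. That gene was ATL8, the only one of the 13 past both folds with the values as deposited. With spike-in scaling 6 of the 13 were at least 2-fold lower at 3 h and 7 higher at 24 h. Then AT4G33150, MCCA and ATG8F passed both folds and ATL8 did not, with a log2 ratio of 0.72 at 24 h. Of all 13513 probe sets naming 1 gene, 3097 were lower at 3 h under this scaling, against 363 as deposited. At 24 h 274 were higher, against 713. Spike-in counts of every list carry this shift of all signals, so nothing is read from them. The list's median log2 ratios were -0.13 at 3 h and 1.60 at 24 h, beside -0.12 and 0.00 over all 9642 genes measured, and with spike-in scaling they were -0.90 and 1.08.

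With the values as deposited, the other genes of the list were within 2-fold or higher at 3 h. AT4G33150, the lysine breakdown enzyme, was at 43.5 on the control, 26.4 at 3 h and 394.5 at 24 h, and MCCB, of leucine breakdown, at 110.2, 60.1 and 233.9. Both were lower at 3 h and within 2-fold, with log2 ratios of -0.72 and -0.87, or -1.43 and -1.64 with spike-in scaling. ATG8H, an autophagy protein, was below the floor on the control (14.8) and higher at both times, at 63.7 and 123.9. AKINBETA1, part of the SnRK1 kinase that responds to low energy, was at 54.9 and 57.2 on the control and 3 h arrays before its 431.5 at 24 h.

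EXPA8 was 1 of 13 measured expansins and xyloglucan enzymes, and the only one past both folds. In that list 1 gene was at least 2-fold lower at 3 h and 5 were at least 2-fold higher (5.51% of all genes were), while 6 were higher at 24 h. Its median log2 ratios were 0.27 and 0.87, or -0.49 and 0.35 with spike-in scaling, so the 3 h direction depended on the scaling. With spike-in scaling 5 of the 13 were at least 2-fold lower at 3 h, and EXPA8 was still the only one past both folds. XTH18, a xyloglucan enzyme, had the opposite order to EXPA8, at 5.44 and 15.7, both below the floor, on the control and 24 h arrays and 193.3 at 3 h. XTH16 was at 82.9, 43.6 and 151.6, with log2 ratios of -0.93 and 0.87, just short of both folds.

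Lists with fewer matched genes held no member. For auxin 4 of 46 listed genes were matched to the annotation, and for light harvesting 3 of 15. For the clock it was 1 of 30 and for light signalling 1 of 24. The other listed genes were not read here, so their signals are unknown. Of 4 measured auxin response genes, 0 were past 2-fold at 3 h and 1 was higher at 24 h, WES1, an enzyme that joins auxin to amino acids, at 49.5, 31.5 and 141.5. With spike-in scaling 2 of the 4 were lower at 3 h and 0 higher at 24 h. Of the 3 gibberellin receptor genes, GID1C was nearest to the pattern, at 32.9, 18.9 and 76.0 (log2 ratios -0.80 and 1.21), whereas GID1B was highest at 3 h, at 43.4, 144.1 and 67.7. With spike-in scaling 2 of these 3 were at least 2-fold lower at 3 h and 0 higher at 24 h. Of 10 sugar transport genes, 0 passed the 2-fold mark downwards at 3 h, 3 were lower at 24 h (7.73% of all genes were) and 2 were higher. With spike-in scaling, 5 of these 10 were at least 2-fold lower at 3 h and 6 at 24 h. Like the other spike-in counts, these carry the shift of all signals and are not read as a result about the list. The 3 light harvesting genes that were matched were all within 2-fold at 3 h, and LHCB4.2 was higher and LHCB4.3 lower at 24 h. With spike-in scaling 2 of the 3 were lower at 3 h and 0 higher at 24 h. HYH, the only light signalling gene that was matched, was at 112.4, 77.7 and 23.5, and no gene of nitrate and ammonium assimilation was matched. GI, the only listed gene of the circadian clock that was matched, was lower at 24 h, at 659.2, 384.9 and 277.5, where CCL was higher. The 4 measured reference genes were within 2-fold at both times, with medians of -0.03 and 0.09. Of these, AT4G33380 was lower, at -0.75 and -0.57, while the others lay between -0.06 and 0.08 at 3 h. All 4 set the reference gene scaling used below, so its shift at 3 h rests mostly on AT4G33380. With spike-in scaling the medians of the 4 were -0.79 and -0.43, and 1 of the 4 was at least 2-fold lower at each time.

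**Figure D3:**
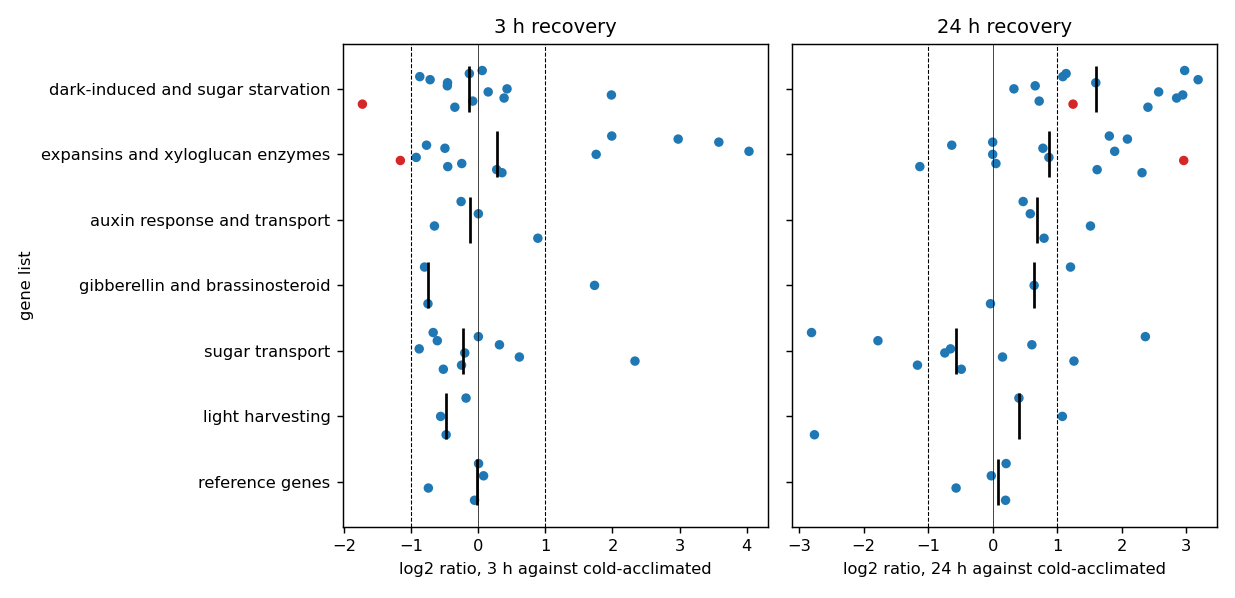
Log2 ratios to the cold-acclimated array at 3 h (left) and 24 h (right) of each measured gene in 7 lists, with 1 point for each gene, a black bar at the list's median and dashed lines at 2-fold. The members ATL8 and EXPA8 (red) are the leftmost points of their lists at 3 h and lie right of the 2-fold line at 24 h.

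Close relatives of the named members, looked up after the members were known, passed 1 fold or neither in the 5 families examined. These families were picked by gene symbol, so relatives known by locus code only were left out. ARR15, also a type-A response regulator, was at 71.5 on the control, 39.2 at 3 h and 54.5 at 24 h, below the control at both times where RR16 was above it at 24 h. The other 4 response regulators named by the annotation were below the floor on all 3 arrays. TSC10A, which encodes the same reductase as TSC10B, was at 112.8, 128.3 and 143.4, within 2-fold throughout. LCB2, a subunit of the first enzyme of sphingolipid synthesis, was at 151.1, 94.2 and 228.7, within 2-fold but in the order of TSC10B.

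GT-1, a trihelix factor like GT2, was at 45.1 on the control, 53.9 at 3 h and 101.7 at 24 h, so it shared the higher 24 h signal and not the lower 3 h signal. PTL, of the same family, was at 24.4, 21.9 and 9.89, the last below the floor, and within 2-fold at both times. Of 8 measured alpha-expansins, EXPA9 was at least 2-fold lower at 3 h as EXPA8 was, at 58.2 and 27.3, but stood at 37.4 at 24 h. EXPA20, at 20.8, 17.1 and 42.9, was the only other one at least 2-fold higher at 24 h. XERICO, a RING-H2 protein, was at 104.6, 85.5 and 180.6, within 2-fold at both times. ATL5, another RING-H2 protein, was at 70.9, 69.8 and 41.1, also within 2-fold but below the control at 24 h where ATL8 was above it.

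All 31 genes are protein-coding on the reference, and no 2 of them are neighbours. Of the 62 protein-coding genes next to a member, 25 were measured. At least 2-fold lower at 3 h was 1 of these (4%, beside 3.74% of all genes), AT1G76880 next to GT2, at 88.4, 37.3 and 81.3. At least 2-fold higher at 24 h were 2 (8%, beside 7.34%), bHLH121 next to AT3G19850, at 52.2, 43.5 and 190.7, and AT5G57345 next to AT5G57340, at 246.7, 252.9 and 667.3. These shares are near the background.

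Which genes pass both folds depended on the scaling and the floor. With spike-in scaling, all 31 members were at least 2-fold lower at 3 h, which was fixed beforehand because this scaling only lowers the 3 h signals. Of all probe sets naming 1 gene, 3097 were then at least 2-fold lower at 3 h, against 363 as deposited. At 24 h, 14 members were still at least 2-fold higher. The members' median log2 ratios were -1.91 and 0.83 under this scaling, and 40 other genes passed both folds. With median scaling 24 members remained, with quantile normalization 27, with loess 20 and with reference gene scaling 21. A floor of 33.3 left 18, and a floor of 4.26 kept all 31 and added 22. AT1G21920, AT1G23390, AT5G16030 and AT1G26920 passed both folds under each of the 8 alternatives to the scaling, floor and log transform. AT5G03120 and AT2G29290 passed under 1 of these. No member's log2 ratio changed sign under any of them. The rule put every ratio at least 2-fold from the control, so a change of sign was hardly possible and nothing is read from this.

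**Figure D4:**
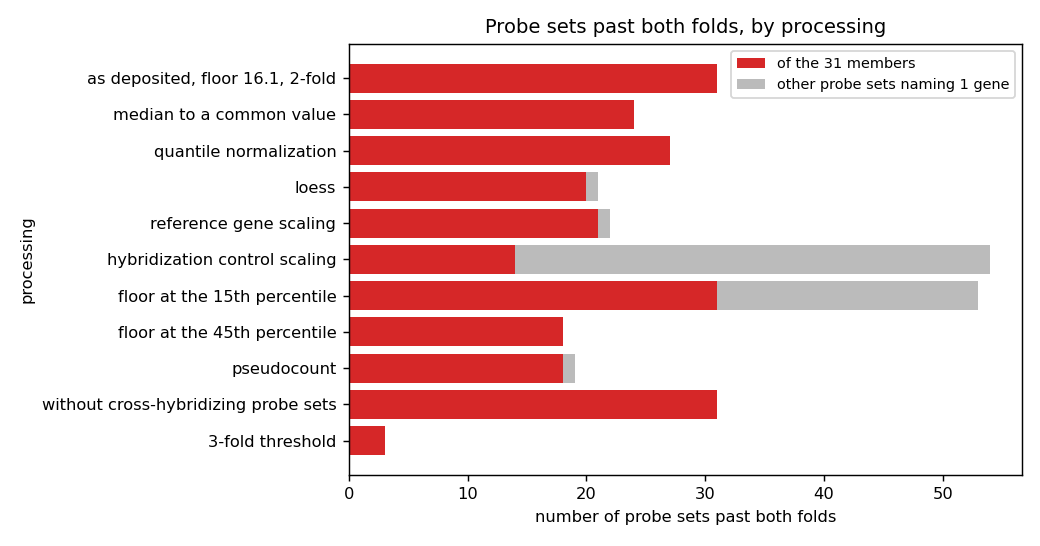
Number of probe sets naming 1 gene that passed both folds under each way of processing the values. Red counts the 31 members and grey counts other probe sets; spike-in scaling kept 14 members and added 40 others, and a 3-fold threshold in both directions kept 3.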

How the data were processed

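The authors deposited linear signal intensities per probe set, made with MAS5 per the submitters' processing notes; version, settings and genome build are not given in the sources used here. Each array's 2% trimmed mean was near 100 (100.0 on each). Gene names are those of the platform annotation; RefSeq's TAIR10.1 table supplied current symbols. Signals were floored at 16.1, log2 ratios taken, and the folds applied in Python 3.11.15 (pandas 2.3.3, numpy 2.4.6, statsmodels 0.14.6, scipy 1.17.1, matplotlib 3.10.9). Counting was tested on simulated data in which only probe sets brighter than most members were given the pattern. Dim signals and ratios near the folds were therefore not covered by it. A group of 1 array allows no test, so none was made, and precision is limited by how few arrays there are. Members and lists were chosen with earlier results of these data known. All 31 members are named. Lists (13 lists, 269 places, 57 used; 3 left out because the reference lacks the listed name) were matched by locus code, with the brightest probe set for a gene, measured if it reached the floor on any array. Beside the lists, genes past both folds and some others are named. These others were picked with the values known and were not always those of largest ratio. For example, EXLA1, with a log2 ratio of 4.04 at 3 h, and SWEET13, with -2.81 at 24 h, are not described above. The 5 families of relatives were chosen after the values were seen. Alternatives were 4 scalings (median, quantile, reference genes, bacterial spike-ins), loess, a lower floor (15th percentile) and a higher one (45th percentile), a pseudocount of 16, leaving out cross-hybridizing probe sets, and a 3-fold threshold. Promoter and protein sequences were not analysed here, and detection calls were not used here.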

Additional observations from a re-analysis of the deposited data

Results flagged for a closer look

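Of the 8730 probe sets that the annotation gives no gene, which the comparisons do not use, 35 passed both folds, 0.48% of the 7285 that reached the floor on any array. Their log2 ratios ran from -2.98 to -1.001 at 3 h and from 1.02 to 4.53 at 24 h, with medians of -1.44 and 1.45. Of these, the one with the highest 24 h ratio was at 55.4 on the control, 22.7 at 3 h and 1279 at 24 h. The one with the lowest 3 h ratio was at 126.9, 0.66, below the floor, and 450.7. Both were chosen after their values were seen. A further 1 probe set that names several genes passed, and 0 of the control probe sets did. All 31 members differ in direction between the recovery times by the rule that chose them, and this difference was not tested.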

How the results depend on the processing

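Against 31 genes past both folds, 54 passed with spike-in scaling, 53 with the lower floor (15th percentile), 18 with the higher floor (45th percentile), 19 with a pseudocount and 3 with a 3-fold threshold. Against 363 lower at 3 h, there were 225 with loess, 222 with reference gene scaling, 3097 with spike-in scaling, 866 and 206 with the lower and higher floor, 193 with a pseudocount and 57 at 3-fold. Against 713 higher at 24 h, there were 274 with spike-in scaling, 1207 with the lower floor and 246 at 3-fold. The members' median log2 ratios moved by more than the probe set SD only with spike-in scaling, to -1.91 at 3 h and 0.83 at 24 h. Of the single members' ratios, 80 of 558 did so under any alternative. That 0 changed sign follows largely from the rule, which put each at least 2-fold from the control. Under spike-in scaling the median log2 ratio over all probe sets naming 1 gene was -0.45 at 3 h and -0.07 at 24 h. Whether the spike-ins or the trimmed mean is the better scale was not tested. No paired analysis was possible because each group holds 1 array. Signals near the floor limit what the 3 h values of dim genes can show.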
